A study of Rattus norvegicus with 6 samples.

Results

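Rat-1 cells, an established line of rat fibroblasts, were compared on 2 kinds of extracellular matrix (ECM): a matrix that had been remodelled by matrix metalloproteinase 1 (MMP1), and native matrix. The comparison was defined by the group names of the libraries and used no measured value. It takes 4 of the 6 libraries of the series, 2 from MMP1-remodelled and 2 from native matrix. The other 2 libraries came from cells on MMP13-remodelled matrix and entered the filter on low values and the estimate of spread. In all groups the cells were grown in medium with fetal bovine serum, seeded at 25000 per well and lysed on the matrix after 4 h, so that only adherent cells contributed RNA. The design asked how fibroblast transcription responds within hours to a matrix cut by a collagenase. The labels do not say from which tissue the matrix came, how far it was digested, or whether the duplicates were separate cultures. So p-values can speak only of the scatter among these few libraries, part or all of which may be technical. With 2 against 2, an exact two-sided permutation test cannot go below p = 0.333, so single values are given without one.

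MMP1 is a secreted collagenase that cleaves the triple helix of fibrillar collagen. Cells hold on to fibrillar matrix through integrins, whose signals pass through focal adhesions to the actin cytoskeleton and to transcription. Seeding itself is a stimulus, and freshly attached fibroblasts make immediate early transcripts, ribosomes and new matrix. The transcription factor NRF2 switches on haem oxygenase, thioredoxin and glutathione genes when cells meet oxidants or reactive chemicals.

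Transcripts were counted by sequencing their 3' ends, and levels are reads divided by 1 size factor per library, called units below. Because only 3' ends are counted, units were not divided by gene length. The native libraries held 219775 and 347618 reads, and the MMP1 libraries 184061 and 225105. A value of 0 allows a true level of up to 3 reads, or between 2.26 and 4.38 units in these 4 libraries. Of 17143 genes in the table, 7284 had at least 5 units in at least 2 libraries and were tested. Of these, 1064 had a mean of 50 units or more over the 4 libraries and are called abundant here. Ifngr1 lay just inside that level at 50.1 units and Uso1 just outside at 49.97. The abundant genes held between 61.8% and 63.6% of all units in each library. The 11 fibroblast markers listed, from Col1a1 to S100a4, took between 2.99% and 3.32% of reads, with none of them called. These markers differed widely in level, with a mean over the 4 libraries of 2022 units for Col1a1 and 11.9 for Col3a1. The lists of 9 other cell types took at most 0.0222% each. Some listed genes of several types were at 0 in all 4 libraries (3 of 6 epithelial, 2 of 8 leukocyte and 2 of 4 Schwann cell markers). By these summed shares, the libraries carried the markers of their label.

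Abundant genes differed more between the matrices than between 2 libraries of the same matrix, though most log2 differences stayed under 0.5 in either direction. The log2 differences between the group means had a standard deviation (SD) of 0.348 over the 1064 abundant genes. Between the 2 native libraries it was 0.261, and between the 2 MMP1 libraries 0.254, both divided by the square root of 2 to carry the same error. A difference above 0.5 in either direction was seen for 14.4% of abundant genes between the matrices, against 6.49% within native and 5.36% within MMP1. The median log2 difference of the abundant genes was 0.00. Over all tested genes, most of them of low level, the SDs lay closer together at 0.767 between matrices, 0.673 within native and 0.750 within MMP1.

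**Figure D1:**
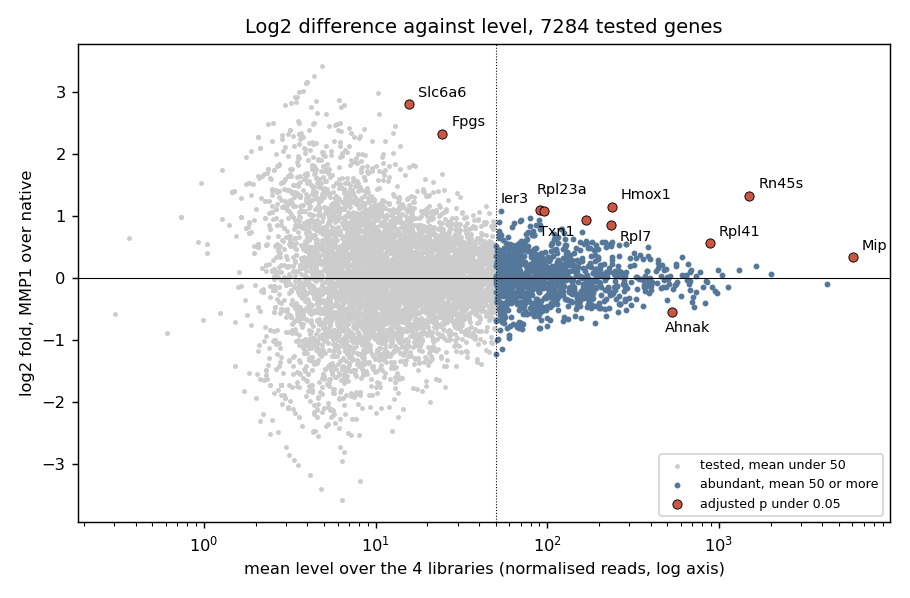
Log2 fold on MMP1-remodelled over native matrix (vertical axis) against the mean level over the 4 libraries in normalised reads (horizontal log axis), 1 point per tested gene, with the dotted line at 50 units. The spread narrows with level, and the 11 called genes, labelled in red, are 10 above and 1 below 0.

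Differential expression was tested with limma on log2(units + 1), and a gene was called where its p, adjusted by Benjamini-Hochberg over all 7284 genes, was under 0.05. On MMP1-remodelled matrix 10 genes rose (0.137% of tested genes) and 1 fell (0.0137%). Of the abundant genes 8 rose (0.752%) and 1 fell (0.094%). The abundant genes that rose were Rn45s, Hmox1, Ier3, Rpl23a, Txn1, Rpl7, Rpl41 and Mip, and the one that fell was Ahnak. They name a stress enzyme, a redox protein, an early response gene, components of the ribosome, a lens water channel and a giant scaffold protein. In each of the 11, both MMP1 values lay beyond both native values. EdgeR on the recovered reads shared 10 of the 11 calls. The limma fit took each gene's spread wholly from genes of like level, so that a gene whose own libraries scatter more has too small an error. Without that trend limma called 0 genes, with 600 genes at an unadjusted p under 0.05 in the fit with the trend. DESeq2 called Hmox1 alone, and with TMM factors from all genes limma called Hmox1, Rn45s and Fpgs.

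Below the threshold, 231 abundant genes (21.7%) had both MMP1 values above both native values and 239 (22.5%) had both below. Over all tested genes these shares were 19.6% and 18.8%. The remaining 594 abundant genes overlapped between the matrices. These counts depend on scaling, since with TMM factors from all genes they became 166 higher and 287 lower, which took the higher share of both from 49.1% to 36.6%. Among the 46 genes at 500 units or more, 7 lay wholly above and 16 wholly below. Between 200 and 500 units the counts were 38 and 34 of 139.

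**Figure D2:**
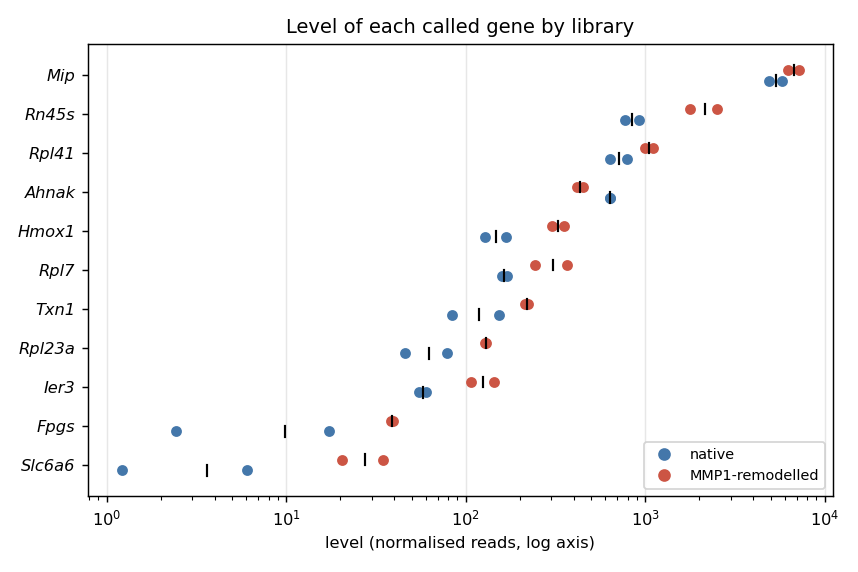
Level of each called gene in normalised reads (horizontal log axis) in each of the 2 native and 2 MMP1 libraries, with points for libraries and bars for the group means. The native and MMP1 points do not overlap in any of the 11 genes, and the native points of Fpgs, Slc6a6, Txn1 and Rpl23a are far apart.

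Outside ribosomal RNA, the called gene of smallest adjusted p was Hmox1, the inducible haem oxygenase, which opens the haem ring and releases iron, carbon monoxide and biliverdin. Hmox1 stood at 129 and 167 units in the native libraries and at 355 and 301 units in the MMP1 libraries. Both MMP1 values were well above both native ones. The gene rose 2.22-fold, a log2 fold of 1.15 (SE 0.16, limma adjusted p = 5.3e-10), and it was called without each of the 6 libraries in turn. On MMP13-remodelled matrix, which shares the native libraries as controls, Hmox1 stood at 835 and 749 units. The products of haem breakdown are handled by other genes. Ftl1, the ferritin light chain that stores iron, had 96.03 and 89.8 units on native and 139 and 137 units on MMP1-remodelled matrix (log2 fold 0.56, adjusted p = 0.37). The haem transporter gene Slc48a1 had 19.4 and 12.1 units against 35.05 and 30.01 (log2 fold 1.03, adjusted p = 0.48). In both genes the MMP1 values lay above the native ones without passing the test. Ferritin heavy chain Fth1, the most abundant gene of this group, overlapped at 946 and 936 units against 940.5 and 1126. The list of haem and iron genes had 14 tested members, of which 1 rose and 0 fell, beside 0.137% and 0.0137% of all tested genes. Of the list's 5 abundant members 3 lay wholly above and 0 wholly below native, beside 21.7% and 22.5% of all abundant genes.

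Thioredoxin Txn1, the small protein that reduces disulphide bonds of other proteins, rose with Hmox1. It had 83.9 and 154 units on native and 223 and 215 units on MMP1-remodelled matrix, a log2 fold of 0.94 (SE 0.20, limma adjusted p = 0.0029). The MMP1 libraries were alike and the native ones were not. Without native replicate 1, the lower of these, the log2 fold was 0.51, and the call was lost there and without either MMP1 library. Peroxiredoxin Prdx1, which removes peroxide with electrons from thioredoxin, had 271 and 370.5 units against 413 and 488 (log2 fold 0.50, adjusted p = 0.13). The autophagy receptor Sqstm1, also a target of NRF2, had 204 and 227 units against 329 and 294 (log2 fold 0.53, adjusted p = 0.18). Neither passed, though both stood apart from native in every library, and Prdx1 did pass with quantile scaling (adjusted p = 0.042). Not all genes of this group leaned the same way. The glutathione transferase Gstp1, the most abundant member, had 806 and 769.7 units on native and 605 and 603 on MMP1-remodelled matrix (log2 fold -0.38, adjusted p = 0.17). The mitochondrial peroxiredoxin Prdx3 had 51.05 and 46.03 units against 35.05 and 16.8, with both MMP1 values below native. Nqo1, a quinone reductase often taken as a marker of NRF2, overlapped at 256 and 266 units against 266 and 215. Of the 33 tested members of the thioredoxin, glutathione and NRF2 list, 1 rose and 0 fell, beside 0.137% and 0.0137% of all tested genes. Of the list's 17 abundant members 8 lay wholly above and 1 wholly below native, beside 21.7% and 22.5% of all abundant genes. The median log2 fold of these 17 was 0.22, beside 0.00 for all abundant genes. It lay between 0.14 and 0.23 with other scalings or a library left out.

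NRF2 binds the antioxidant response element, whose core was searched as TGACNNNGC on both strands in the 250 bases before the RefSeq start of each gene (assembly GRCr8). It was found in 10.1% of 33469 promoters, in 15.2% of 870 abundant genes with a promoter entry and in 7 of 31 members of this list. A match describes letters only. Of these, 4 are printed to set genes that lay above native beside genes that lay below, each 29 bases long, 5′ to 3′ on the gene's strand, with the core in capitals (on the opposite strand in Prdx1 and Gclm).
Prdx1 (chr5:135383761-135383789): cagggaaagcGCTGAGTCAtaccccgccg
Mt2A (chr19:10838927-10838955): aaagggggtgTGACTCAGCgcgggggcgt
Gstp1 (chr1:210769748-210769776): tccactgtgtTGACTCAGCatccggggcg
Gclm (chr2:213031953-213031981): tgcggtttctGCTTAGTCAttgtcttcca
Prdx1, Mt2A and Gstp1 hold the core with the same 9 letters, as does Me1 (log2 fold -0.11), which is not printed. The metallothionein Mt2A had 72.9 and 70.2 units on native and 99.3 and 86.4 units on MMP1-remodelled matrix. Gclm, a subunit of the enzyme that starts glutathione synthesis, had 19.4 and 11.3 units against 8.76 and 10.8. The printed promoters were picked by direction, so finding the core on both sides follows from that choice. None of the 4 printed genes passed the limma test (adjusted p = 0.84 for Gclm), and a link between the core and the direction was not tested. In Gclm, native replicate 2 (11.3 units) and MMP1 replicate 2 (10.8 units) nearly met. Mt2A and Gclm were named for these matches and after their values were seen. No promoter entry was used for Hmox1.

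Ier3, an early response gene that limits cell death, rose 2.17-fold. It had 54.7 and 60.4 units in the native and 143 and 107 units in the MMP1 libraries (log2 fold 1.09, SE 0.25, limma adjusted p = 0.012). The call was lost without MMP1 replicate 1 (adjusted p = 0.39), native replicate 1 (0.62) or native replicate 2 (0.088). Junb, a subunit of the transcription factor AP-1, had 158 and 177 units against 253 and 247 (log2 fold 0.58, adjusted p = 0.17). Ier2, a nuclear protein induced by growth factors, had 14.6 and 35.5 units against 61.3 and 36.01, with native replicate 1 far below the other 3 libraries. The AP-1 members Fosl1 (103 and 80.7 against 97.8 and 126 units) and Jund (79.01 and 54.3 against 61.3 and 80.4) overlapped. Of 27 tested immediate early genes 1 rose and 0 fell, where 0.137% and 0.0137% of all tested genes did. Their median log2 fold was 0.26 beside 0.02 for all tested genes, and between 0.14 and 0.38 over the alternatives run. The translation-controlled activator Atf4 had 159 and 188 units on native and 247 and 274 on MMP1-remodelled matrix (log2 fold 0.58, adjusted p = 0.16). Ddit3, a factor that Atf4 induces, had 70.5 and 55.1 units against 97.8 and 104 (log2 fold 0.69, adjusted p = 0.41). The stress gene Nupr1 had 61.99 and 30.9 units against 81.8 and 81.6. All 3 lay wholly above native without a call, and Nupr1 was named for that. The endoplasmic reticulum stress list, which holds Atf4 and Ddit3, also holds Herpud1, named after its values were seen, at a log2 fold of -0.49. Its 14 abundant members had a median log2 fold of 0.07. Wholly above native lay 6 of them and wholly below 2, beside 21.7% and 22.5% of all abundant genes. The genes that ATF4 is known to switch on did not share a direction. Among the 12 abundant members of that list 3 lay wholly above and 4 wholly below native, beside the same 21.7% and 22.5%. The serine tRNA ligase Sars had 152 and 217 units against 259.9 and 256, while the amino acid carrier Slc38a2 had 297 and 179 units against 134 and 145 (log2 fold -0.72, adjusted p = 0.13, and 0.047 without native replicate 2). The heat shock proteins were likewise divided. The small heat shock protein Hspb1 had 147 and 168 units against 244 and 214 (log2 fold 0.53), and the inducible Hsp90aa1 had 228 and 249.8 against 166 and 174 (log2 fold -0.49). Neither passed (adjusted p = 0.25 and 0.39), and the list's 19 abundant members had a median log2 fold of 0.02 that was between -0.12 and 0.18 over the alternatives run.

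The largest change among abundant genes was in Rn45s, an entry named for the ribosomal RNA precursor. It had 928 and 768 units on native and 1777 and 2529 units on MMP1-remodelled matrix and rose 2.54-fold (log2 fold 1.33, SE 0.09, limma adjusted p = 7.3e-45). The MMP1 libraries differed from each other by more than the native ones, yet both lay above them. The second entry of this kind, Rn28s, had 77.8 and 99.6 units against 159 and 146 (log2 fold 0.79, adjusted p = 0.11). Rn45s took 0.347% and 0.293% of units in the native libraries and 0.661% and 0.936% in the MMP1 libraries. Such reads can enter a 3' end library with the messenger RNA, and the part of this share in the other results was not tested.

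Genes for proteins of the large ribosomal subunit were mostly higher on MMP1-remodelled matrix, with 31 of 38 abundant members at a positive log2 fold beside 532 of all 1064 abundant genes. Of 45 tested members 3 rose and 0 fell, where 0.137% and 0.0137% of all tested genes and 0.752% and 0.094% of abundant genes did. Of the list's 38 abundant members 19 lay wholly above and 3 wholly below native, where 21.7% and 22.5% of all abundant genes did. The summed level of the list was 7893 and 8132 units on native and 8946 and 9446 units on MMP1-remodelled matrix. The median log2 fold of the abundant members was 0.16, and it was between 0.10 and 0.23 with other scalings or a library left out. Rpl41, the smallest ribosomal protein, rose from 636 and 789 units to 994 and 1110 units (log2 fold 0.57, limma adjusted p = 0.00035). For Rpl7 the values were 159 and 169.8 units on native and 244 and 367 units on MMP1-remodelled matrix (log2 fold 0.86, adjusted p = 0.00089). Rpl23a had 46.2 and 78.5 units against 130 and 128 (log2 fold 1.09, adjusted p = 0.012). Each of the 3 rose with no overlap between the matrices, and in Rpl23a native replicate 1 lay well below native replicate 2. All 3 calls were lost without native replicate 1 or MMP1 replicate 2, where the log2 folds were 0.41 and 0.49 for Rpl41, 0.81 and 0.57 for Rpl7, and 0.71 and 1.10 for Rpl23a. Those of Rpl7 and Rpl23a were also lost without native replicate 2 and without MMP1 replicate 1, respectively. The stalk proteins Rplp0 (587 and 675 against 629 and 679 units) and Rplp1 (771 and 616 against 619 and 669) overlapped. Ribosomal protein genes have many near-identical copies in mammalian genomes, so their counts are uncertain where reads could be split among copies.

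Fewer genes of the small subunit lay above native. Of its 32 tested genes 0 passed by limma and by edgeR, where by limma 0.137% of all tested genes rose and 0.0137% fell. An unadjusted p under 0.05 was met by 7 of the 32, beside 600 of all 7284 tested genes. Of its 28 abundant genes 9 lay wholly above and 5 wholly below native, beside 21.7% and 22.5% of all abundant genes. The median log2 fold of the 28 was 0.07, and 0.01 with TMM factors from all genes. Rps14 had 53.5 and 43.01 units against 94.9 and 91.2 (log2 fold 0.94, adjusted p = 0.15), and the laminin-binding Rpsa had 202 and 178 against 309.6 and 251 (log2 fold 0.55, adjusted p = 0.18). Rps18, a protein of the subunit's head, lay the other way at 328 and 286 units against 193 and 226 (log2 fold -0.55, adjusted p = 0.19). Whether the large and small subunits differ was not tested. Nucleolin Ncl, which works on the ribosomal RNA precursor, had 82.7 and 95.1 units on native and 140.2 and 170.5 units on MMP1-remodelled matrix (log2 fold 0.80, adjusted p = 0.13). The nucleolar methyltransferase Fbl stayed at one level, with 76.6 and 79.2 units against 77.4 and 76.8. Of the 22 tested nucleolar and ribosome assembly genes 0 were called by limma, with 2 at an unadjusted p under 0.05, and 3 of the 4 abundant ones lay wholly above native. Initiation and elongation factors had a median of 0.00 over 27 abundant members, 5 wholly above and 4 wholly below. Eif5a (895 and 838 against 797 and 858 units) and Tpt1 (602 and 708 against 727 and 666) overlapped. Poly(A)-binding protein Pabpc1 had 357 and 352 units against 442 and 431 (log2 fold 0.30, adjusted p = 0.59).

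**Figure D3:**
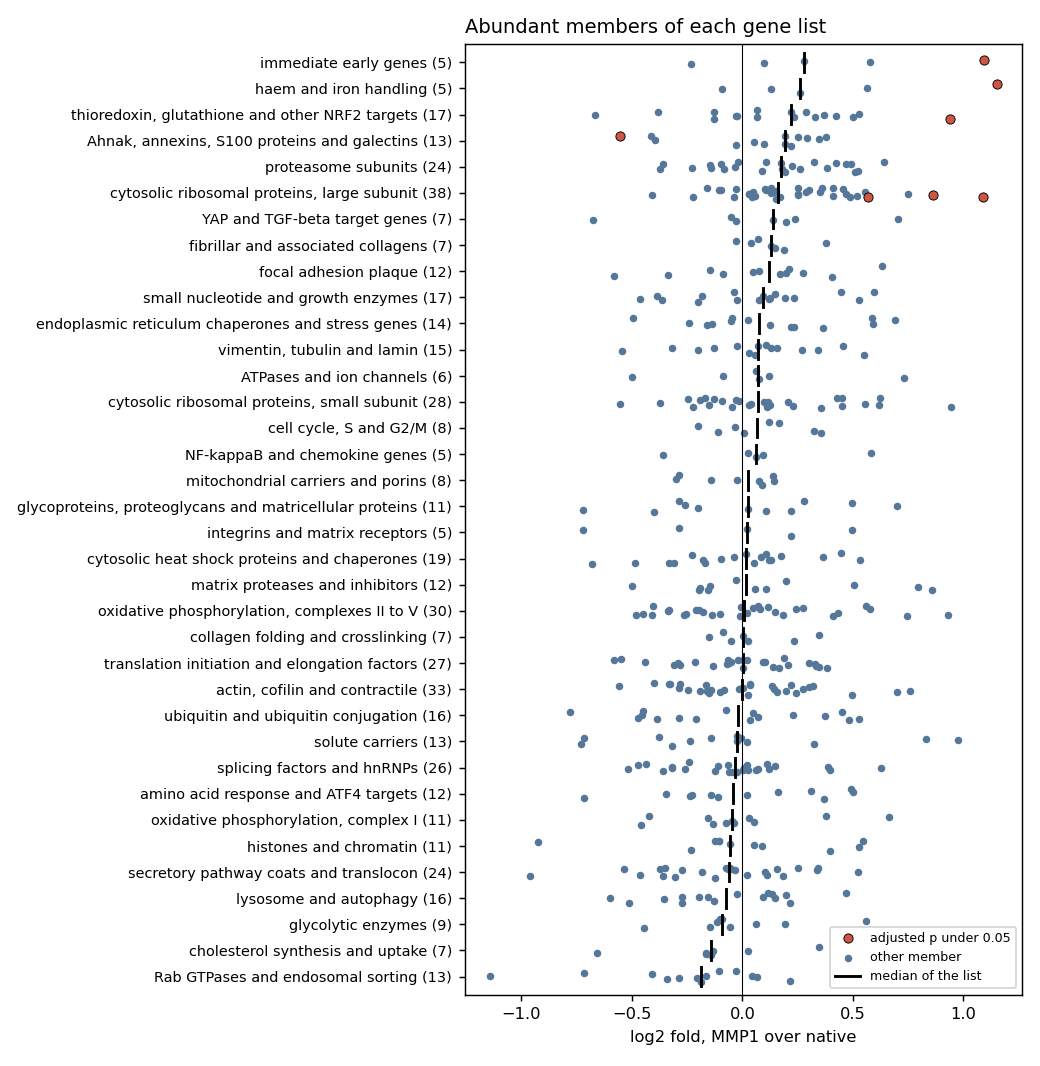
Log2 fold on MMP1-remodelled over native matrix (horizontal axis) of each abundant member of 36 gene lists with at least 5 such members, in brackets, with a black bar at each list's median and called genes in red. The medians of the immediate early, haem and NRF2 lists lie above 0.2, and the lowest is that of the Rab and endosomal list.

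Ahnak, a giant scaffold protein at the cell membrane that binds annexins and S100 proteins, was the one gene that fell. It had 634 and 639 units in the native and 416 and 452 units in the MMP1 libraries, a log2 fold of -0.55 (SE 0.14, limma adjusted p = 0.029). Replicates were close in both groups. The call was nevertheless lost without either native or either MMP1 library, with log2 folds between -0.61 and -0.49. The annexin and S100 genes lay on both sides. Annexin A2 gene Anxa2 had 274 and 334 units against 384 and 403 (log2 fold 0.38, adjusted p = 0.39), and S100a6 had 619.9 and 601 against 678 and 745 (log2 fold 0.22, adjusted p = 0.66). The matrix-binding galectin Lgals1 had 1467 and 1598 units against 1693 and 1805. These 3 lay wholly above native and none passed, and with quantile scaling the log2 fold of Lgals1 turned from 0.19 to -0.22. Anxa5 (220 and 175 against 126 and 173 units) and Anxa11 (80.2 and 86.8 against 62.8 and 63.6), both chosen after their values were seen, lay wholly below, as Ahnak did. S100a4, a calcium-binding protein of motile fibroblasts, overlapped at 1072 and 974 against 1040 and 1082 units. Among the 13 abundant members of the list 6 lay wholly above and 3 wholly below native, beside 21.7% and 22.5% of all abundant genes. The median log2 fold of the 13 was 0.19.

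The genes that build, cut and sense the matrix gave no calls. Of 94 tested members of the 5 lists of matrix structure, folding, proteolysis and receptors, 0 passed by limma in either direction. Of all tested genes 0.137% rose and 0.0137% fell, so 0 calls among 94 genes is near the overall share. An unadjusted p under 0.05 was met by 15 of the 94, beside 600 of all 7284 tested genes. EdgeR and DESeq2 also called 0 in these 5 lists and in each other list in which limma called 0. Of the 39 abundant members 11 lay wholly above and 9 wholly below native, beside 21.7% and 22.5% of all abundant genes. The fibrillar collagen genes Col1a1 (1829 and 2114 against 2191 and 1953 units) and Col1a2 (473 and 432 against 439.6 and 492) overlapped between the matrices. Fibronectin gene Fn1, whose product cells assemble into fibrils through integrins, had 965 and 921 units on native and 723 and 707 units on MMP1-remodelled matrix (log2 fold -0.40, adjusted p = 0.13). Integrin beta 1 gene Itgb1, a subunit of the receptors for fibronectin and collagen, had 649 and 668 units against 569.6 and 511 (log2 fold -0.29, adjusted p = 0.50). The hyaluronan receptor Cd44 had 74.2 and 64.9 units against 48.2 and 36.01 (log2 fold -0.72, adjusted p = 0.51). All 3 were lower in both MMP1 libraries without passing. Serpinh1, the collagen chaperone of the endoplasmic reticulum, lay the other way at 503 and 567 units against 686 and 673 (log2 fold 0.35, adjusted p = 0.27). It passed with quantile scaling (adjusted p = 0.045).

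Among the proteases, the membrane-bound collagenase Mmp14 was the abundant one of largest fold. It had 48.6 and 73.95 units on native and 90.5 and 132 units on MMP1-remodelled matrix (log2 fold 0.86, SE 0.26, adjusted p = 0.16). The secreted collagenase Mmp13 had 103 and 95.8 units against 77.4 and 63.6 (log2 fold -0.50, adjusted p = 0.65), and the gelatinase Mmp2 had 44.98 and 38.5 against 14.6 and 28.8. So Mmp14 was above native and the other 2 below in both MMP1 libraries, and none passed. The inhibitor Timp1 overlapped at 241 and 278 against 244 and 318 units. Serpine2, an inhibitor of thrombin and plasminogen activators, had 49.8 and 83.01 units against 140.2 and 90.03. The lysosomal cathepsins Ctsl (733 and 715 against 628 and 635 units) and Ctsb (312 and 306 against 269 and 286) were slightly lower in both MMP1 libraries, with adjusted p of 0.72 and 0.84.

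The cytoskeleton and adhesion lists (92 tested members) had 0 calls by limma, where 0.137% of all tested genes rose and 0.0137% fell. An unadjusted p under 0.05 was met by 11 of the 92, beside 600 of all 7284 tested genes. Of 60 abundant members 13 lay wholly above and 12 wholly below, beside 21.7% and 22.5% of all abundant genes. Actb, the cytoplasmic actin and after Mip the most abundant gene, had 4667 and 4204 units on native and 4272 and 3996 on MMP1-remodelled matrix. Vimentin Vim (1099 and 1411 against 1326 and 1402 units) and the myosin light chain Myl12a (574 and 742 against 708 and 725) overlapped as well. The nuclear lamin Lmna had 173 and 202 units against 256 and 293 (log2 fold 0.55, adjusted p = 0.21). The actin-binding adaptor Lasp1 had 60.8 and 61.9 units against 112 and 97.2 (log2 fold 0.76, adjusted p = 0.24), and Vasp, which elongates actin filaments at adhesions, had 66.9 and 53.6 against 96.4 and 90.03 (log2 fold 0.63, adjusted p = 0.46). Caveolin Cav1, the coat protein of caveolae, had 113 and 102 units against 83.2 and 61.2 (log2 fold -0.58, adjusted p = 0.54). The first 3 of these lay wholly above native and Cav1 wholly below. Cofilin Cfl1, which severs actin, had 1165 and 1211 units against 1068 and 1086 and was called with quantile scaling only, where its log2 fold was -0.39 beside -0.14 in the limma fit as designed. Genes that YAP and TGF-beta switch on did not move together. Ctgf (17.02 and 21.1 against 18.99 and 36.01 units) overlapped, Cyr61 (55.9 and 68.7 against 51.1 and 28.8) was lower in both MMP1 libraries and Tgfbi (38.9 and 40 against 68.6 and 61.2) higher, none with a call.

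Of 53 abundant members of the endosomal, secretory and lysosomal lists, which serve membrane traffic, 7 lay wholly above and 19 wholly below native, with a median log2 fold of -0.10. Over all abundant genes these shares were 21.7% and 22.5% and the median was 0.00, and the difference from them was not tested. By limma 0 of 154 tested members passed, where 0.137% of all tested genes rose and 0.0137% fell. An unadjusted p under 0.05 was met by 17 of the 154, beside 600 of all 7284 tested genes. Among 13 abundant Rab and endosomal sorting genes 0 lay wholly above and 6 wholly below, and their median of -0.18 ranged from -0.29 to -0.11 with other scalings or a library left out. Vps25, a subunit of the ESCRT-II complex that sorts ubiquitinated receptors, had 93.6 and 55.8 units on native and 23.4 and 44.4 units on MMP1-remodelled matrix (log2 fold -1.14, adjusted p = 0.18). The small GTPase Rab7a of late endosomes had 130.1 and 128 units against 99.3 and 113 (log2 fold -0.28, adjusted p = 0.78). Rab34, one of the 6, was so by a margin under 1 unit, with native replicate 2 and MMP1 replicate 1 both at 181 units. Sec11a, the catalytic subunit of signal peptidase, had 85.1 and 73.95 units against 48.2 and 33.6 (log2 fold -0.96, adjusted p = 0.19). The KDEL receptor Kdelr1, which returns escaped chaperones, had 254 and 230.2 against 184 and 189.7 (log2 fold -0.37, adjusted p = 0.60). Both were lower in each MMP1 library. Not all of the coat machinery lay below native, since the COPII GTPase Sar1a had 26.7 and 42.3 units against 62.8 and 82.8 (log2 fold 1.08, adjusted p = 0.16). Sar1a was the abundant gene of largest uncalled fold upward. In the endoplasmic reticulum, the chaperone Calr had 1062 and 1053 units against 895 and 892 (log2 fold -0.24, adjusted p = 0.47). Hspa5, the main chaperone of its lumen, had 282 and 313 against 345 and 347 (log2 fold 0.22, adjusted p = 0.76).

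Protein breakdown genes gave 0 calls by limma over 67 tested proteasome and ubiquitin genes, with 11 at an unadjusted p under 0.05. Of all 7284 tested genes 0.137% rose and 0.0137% fell, and 600 had an unadjusted p under 0.05. Of 24 abundant proteasome genes 11 lay wholly above and 4 wholly below native, beside 21.7% and 22.5% of all abundant genes. The median log2 fold of the 24 was 0.18, and it lay between 0.04 and 0.22 over the alternatives run. Those of highest level hardly differed, with Psmb4, a core subunit, at 154 and 163 units against 169 and 173 and Psmd2, a subunit of the regulatory particle, at 294 and 281 against 261 and 276. The polyubiquitin gene Ubb overlapped at 254 and 235 units against 189.9 and 235. The ubiquitin-conjugating enzyme Ube2d2 had 89.95 and 79.2 units against 48.2 and 49.2 (log2 fold -0.78, adjusted p = 0.30) and lay wholly below native.

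Energy and lipid metabolism gave 0 calls by limma over 135 tested genes, where 0.137% of all tested genes rose and 0.0137% fell. An unadjusted p under 0.05 was met by 17 of the 135, beside 600 of all 7284 tested genes. Glycolytic Pkm (614 and 549 against 568 and 549 units) and Pgk1 (530 and 531 against 453 and 539) overlapped. Aldoa (899.5 and 792 against 783 and 742 units) was slightly lower in both MMP1 libraries (adjusted p = 0.77). Lactate dehydrogenase Ldha had 434 and 400 units against 286 and 328 (log2 fold -0.44, adjusted p = 0.24), both MMP1 values below native. Among respiratory genes, 2 of complex III went apart, and its other listed abundant members had log2 folds between theirs. Of complex III, Uqcrb had 49.8 and 73.95 units against 127 and 107 (log2 fold 0.93, adjusted p = 0.13), while Uqcr10, below the abundant level, had 71.7 and 48.3 against 23.4 and 20.4 (log2 fold -1.39, adjusted p = 0.085). The difference between the 2 genes was not tested. Cox6a1, of cytochrome oxidase, had 179.9 and 203 units against 280.4 and 292 (log2 fold 0.58, adjusted p = 0.16). The citrate-cleaving enzyme Acly, which feeds lipid synthesis, had 153 and 169 units against 128 and 80.4 (log2 fold -0.66, adjusted p = 0.24). Nme2, a nucleoside diphosphate kinase, had 833 and 826 units against 621 and 585 and was the nearest to a call among lower abundant genes (log2 fold -0.46, adjusted p = 0.085, and 0.026 with quantile scaling).

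Nuclear genes leaned to neither side. Over 26 abundant splicing factors 4 lay wholly above and 5 wholly below native, and over 11 abundant chromatin genes 3 and 1. Of all abundant genes 21.7% and 22.5% did so. By limma 0 of 49 tested splicing factors and 0 of 22 tested chromatin genes passed, where 0.137% of all tested genes rose and 0.0137% fell. An unadjusted p under 0.05 was met by 4 and 2 of them, beside 600 of all 7284 tested genes. The chromatin remodelling ATPase Smarca4 had 76.6 and 79.99 units against 32.1 and 51.6 (log2 fold -0.92, adjusted p = 0.24). The RNA helicase Ddx5 had 638 and 488 units against 480.5 and 395. All 8 abundant cell cycle genes overlapped between the matrices, among them Pcna (146 and 116 against 126 and 128 units), the sliding clamp of DNA replication, and the mitotic kinase Plk1 (116 and 152 against 119.8 and 110.4). By limma 0 of the 37 tested cell cycle genes passed, with 4 at an unadjusted p under 0.05.

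The remaining calls were outside these groups. Mip, named for the water channel of the lens fibre cell, was the most abundant entry in the table. It had 5819 and 4880 units on native and 6288 and 7175 units on MMP1-remodelled matrix and rose 1.26-fold (log2 fold 0.33, SE 0.06, limma adjusted p = 1.2e-05), with no overlap. The call was lost without MMP1 replicate 2 (log2 fold 0.24, adjusted p = 0.37) and without native replicate 2 (0.21, adjusted p = 0.49). It was also lost with TMM factors from all genes (0.27, adjusted p = 0.27). Quantile scaling sets the top entry of each library to the same value, so that Mip had no difference there (adjusted p = 1). Mip took between 1.86% and 2.66% of all units, and whether its reads come from that gene or from an overlapping or repeated sequence was not tested. Among genes below the abundant level, Slc6a6, the taurine transporter, had 1.22 and 6.04 units against 20.4 and 34.8 (log2 fold 2.81, limma adjusted p = 0.015). Fpgs, which adds glutamates to folate, had 2.43 and 17.4 units against 39.4 and 38.4 (log2 fold 2.33, adjusted p = 0.0060, and 0.062 by edgeR). Both rose, and in both native replicate 1 was below 3 reads' worth of units. Leaving out native replicate 1 gave log2 folds of 1.98 (Slc6a6) and 1.12 (Fpgs) and ended both calls, as did leaving out either MMP1 library. The amino acid carrier Slc38a2 and the zinc importer Slc39a1 were the abundant carriers of smallest p. Slc39a1 had 41.3 and 66.4 units on native and 104 and 104 units on MMP1-remodelled matrix (log2 fold 0.98, adjusted p = 0.11), wholly above native where Slc38a2 was wholly below.

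**Figure D4:**
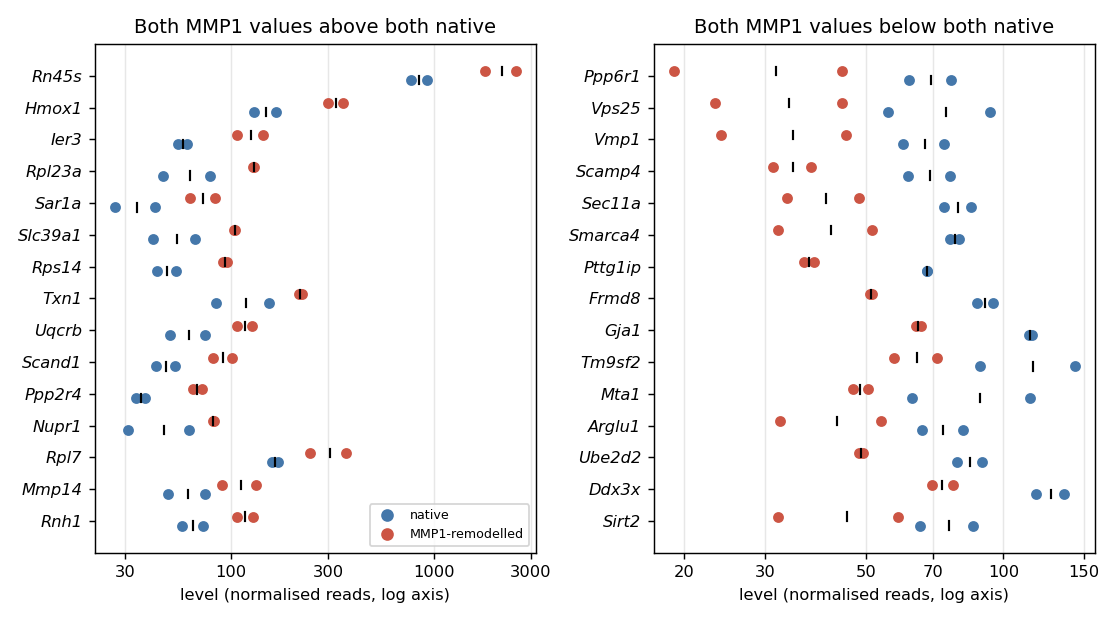
Level in normalised reads (horizontal log axes) of the 15 abundant genes of largest log2 fold above native (left) and below native (right) whose libraries do not overlap, with points for libraries and bars for group means. Only Rn45s, Hmox1, Ier3, Rpl23a, Txn1 and Rpl7 among these 30 passed the test, and none of those on the right did.

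The abundant genes of largest fold downward were all uncalled, with mean levels between 50.6 units (Ppp6r1) and 100.2 units (Ddx3x). Ppp6r1, a regulatory subunit of protein phosphatase 6, had 61.99 and 76.97 units on native and 18.99 and 44.4 units on MMP1-remodelled matrix (log2 fold -1.22, SE 0.37, adjusted p = 0.16, and 0.049 without MMP1 replicate 2). Vmp1, a membrane protein needed to form autophagosomes, had 74.2 and 60.4 units against 45.3 and 24.01 (log2 fold -1.00, adjusted p = 0.24). The MMP1 libraries of these genes were themselves far apart. Replicates were close in Gja1, the gap junction protein connexin 43, with 116 and 114 units against 64.3 and 66.02 (log2 fold -0.81, adjusted p = 0.22). They were close too in Pttg1ip, with 68.1 and 67.9 units against 36.5 and 38.4, and in Frmd8, with 94.8 and 87.5 against 51.1 and 51.6. The RNA helicase Ddx3x had 136 and 118 units against 77.4 and 69.6 (log2 fold -0.78, adjusted p = 0.22). In the other direction the ribonuclease inhibitor Rnh1 had 57.1 and 72.4 units against 107 and 128 (log2 fold 0.85, adjusted p = 0.15), and Ppp2r4, an activator of protein phosphatase 2A, had 37.7 and 33.96 against 71.6 and 64.8 (log2 fold 0.91, adjusted p = 0.30). All of these stood apart from native in both MMP1 libraries, as 21.7% and 22.5% of abundant genes did.

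**Figure D5:**
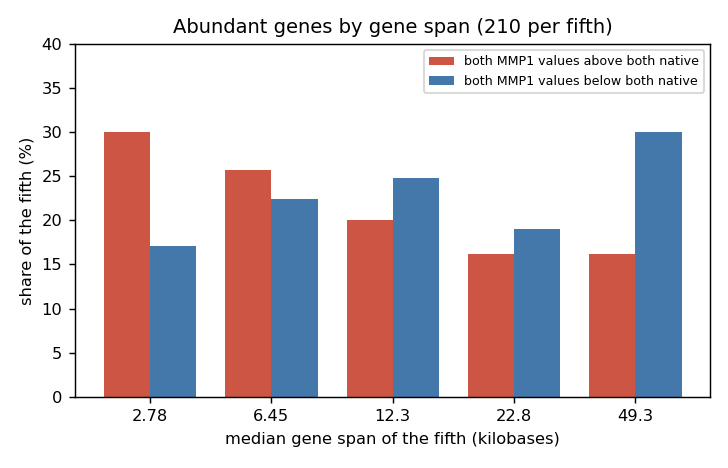
Share of abundant genes (vertical axis, percent) with both MMP1 values above (red) or below (blue) both native values, in 5 classes of 210 genes ordered by gene span, labelled by the median span in kilobases. The red bar is highest in the shortest class at 30% and the blue bar in the longest class at 30%.

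Abundant genes were also ordered by gene length. Gene span, from first to last base of the gene in the RefSeq annotation of GRCr8, was known for 1050 abundant genes (98.7%). In the shortest class, with a median span of 2777 bases, 63 of 210 genes lay wholly above native and 36 wholly below. In the longest class, with a median span of 49302 bases, 34 lay above and 63 below. The share below did not rise from class to class, with 36, 47, 52, 40 and 63 of 210 genes from the shortest to the longest, beside 22.5% of all abundant genes, and the differences were not tested. The median log2 fold was 0.07 in the shortest class and -0.08 in the longest. Across the abundant genes, the correlation of the log2 difference with log span was -0.169 (Pearson) and -0.170 (Spearman). It lay between -0.130 and -0.141 (Pearson) in each of the 4 pairs of an MMP1 with a native library, which share libraries. Between the native libraries it was 0.037 and between the MMP1 libraries 0.0015. Over 7176 tested genes it was weaker, at -0.064 (Pearson) and -0.057 (Spearman), beside 0.051 between the native libraries, and in 1 pair it was -0.015. Genes are not independent replicates, so no p is given. The Rn45s share was higher in both MMP1 libraries, and genes of the large ribosomal subunit were mostly higher there. Whether either has a part in the span pattern was not tested.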

How the data were processed

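The 4 libraries (2 native, 2 MMP1) and the 2 MMP13 libraries were grouped by their titles. The deposited values are a normalised signal: the authors scaled each library's gene counts by a single size factor. The values themselves show this, since 100% were whole multiples of 1 read within a tolerance of 0.01. Per the submitters' processing notes, the tools were bcl2fastq, TopHat and DESeq and the rat build was rn5. The gene counter, annotation, strand use and the collapsing of molecular identifiers (UMIs, 8 nucleotides) were not given in the sources used here, so reads may not be independent molecules and floors of 3 reads cover counting error only.

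Genes with at least 5 units in at least 2 of the 6 libraries were tested with limma 3.58.1 in R 4.3.3 on log2(value + 1), with an intensity trend, 1 coefficient per group and no replicate block. The fit left 3 residual degrees of freedom, and its prior was estimated as infinite, so tests used 21852 degrees of freedom drawn from all genes. Folds on this scale understate changes of low genes. Recovered reads were tested with edgeR 4.0.16 (9 genes higher, 1 lower) and DESeq2 1.42.0. Unless another tool is named, each adjusted p is from limma. Scripts were tested on simulated data.

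The members and the 40 gene lists were chosen with earlier results of these data known. Lists are described by counts and medians, with no test. Named genes are all calls, the 15 largest non-overlapping log2 folds of abundant genes in each direction, the 15 genes of highest level, for each list the 4 members of highest level and the 3 of smallest p, and 10 fixed genes such as Mmp13 and Col1a1. Predicted genes and pseudogene entries (21 of the abundant ones) were counted and not named, and a few genes the rule names are not reported here. Of the symbols, 97.6% matched the RefSeq table of GRCr8, which gave synonyms, gene spans and promoters only.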

Additional observations from a re-analysis of the deposited data

How the results depend on the processing

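Each alternative changed 1 choice. The counts of higher genes (10, of which 8 abundant) and lower genes (1) were the same with edgeR apart from 9 higher, with the 4 libraries alone, a stricter filter, a pseudocount of 0.5 or 5, and identical entries counted once. The labels do not say that a replicate number marks a shared culture, and deviations of same-numbered native and MMP1 libraries correlated at r = 0.0059. With a replicate block 10 genes were higher and 1 lower, as without it. Limma without the trend gave 0 higher and 0 lower, DESeq2 1 and 0 (all and abundant alike), and TMM factors 3 and 0, or 2 and 0 among abundant genes. Without a filter 0 were lower. Quantile scaling gave 3 lower. With a library left out the higher count ran from 3 to 10 (abundant 3 to 8) and the lower count from 0 to 6 (abundant 0 to 1). Abundant genes wholly above native numbered 166 with TMM factors, 478 from a mean of 25 units, 116 from a mean of 100 and 354 to 423 with a library left out. A changed cut-off also changes how many genes are counted, so these counts are not shares. Between 100 and 200 units the shares were 24.15% wholly above and 21.77% wholly below. Those wholly below numbered 449 from a mean of 25, 114 from a mean of 100 and 364 to 395 with a library left out. With a native or MMP1 library left out these counts can only stay or rise, since fewer values can overlap. Their rise there says nothing about the matrices. TMM factors moved the median log2 difference of abundant genes by -0.06. No log2 fold printed here for a single gene turned sign under any alternative run, apart from Lgals1 (-0.22 with quantile scaling), and that of Mip went to 0 with quantile scaling. With TMM factors the median of all tested genes turned from 0.02 to -0.04 and that of abundant heat shock genes from 0.02 to -0.04. Abundant genes under 100 units rested on a median of 46 reads in the shallowest library, and their log2 folds had a median SE of 0.29.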

Other observations

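Below the abundant level, several transcripts had larger folds than most abundant genes and none of those given here passed the limma test. Such folds are frequent at low level. Of 7284 tested genes, 1240 had a log2 difference above 1 in either direction between the matrices. Within native it was 920 and within MMP1 1150, on the same error scale. Both MMP1 values lay above native in 19.6% of tested genes and below in 18.8%. Eif2b1, a subunit of the exchange factor that recharges initiation factor 2, had 8.51 and 5.28 units on native and 26.3 and 26.4 units on MMP1-remodelled matrix (log2 fold 1.82, SE 0.54, adjusted p = 0.14). Scarb2, a receptor of the lysosomal membrane, had 3.65 and 5.28 units against 18.99 and 22.8 (log2 fold 2.01, adjusted p = 0.26). Snx4, which sorts cargo in early endosomes, had 17.02 and 9.05 units against 1.46 and 1.2 (adjusted p = 0.33), and the collagen-binding integrin subunit Itga11 had 8.51 and 10.6 against 1.46 and 2.401 (adjusted p = 0.47). The MMP1 values of Snx4 and Itga11 are under the level that 3 reads make, so no fold is given. In the sterol pathway Sqle, which makes squalene epoxide, lay wholly above native at 31.6 and 21.9 units against 48.2 and 56.4, while the abundant Cyp51 (88.7 and 100.4 against 111 and 63.6) overlapped. The mitotic cyclin Ccnb1 lay below native at 54.7 and 45.3 units against 18.99 and 32.4, and the DNA precursor kinase Tk1 above at 29.2 and 29.4 against 65.7 and 46.8. Of the chemokine genes, Cxcl1 lay wholly above native at 124 and 124 units against 197 and 176 (log2 fold 0.58, adjusted p = 0.27). Ccl2 overlapped at 383 and 174 against 238 and 306.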
